A study of Mus musculus with 18 samples.

Results

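The 31 genes described here encode collagen chains, other matrix proteins, lysyl oxidases, smooth muscle contractile proteins, fibroblast receptors and secreted Wnt-pathway proteins. They were chosen by gene symbol, and all 31 were found among the 23052 symbols of both count tables. Fibroblasts and smooth muscle cells secrete procollagens, which are trimmed outside the cell, packed into fibres with the help of small proteoglycans and cross-linked by lysyl oxidases. Activated fibroblasts also carry smooth muscle actin and transgelin, the proteins with which they pull on the matrix. Macrophages make fibronectin and some other matrix proteins but are not a main source of fibrillar collagen, and cultures grown from bone marrow can hold adherent stromal cells beside them.

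Total RNA was sequenced from bone marrow-derived macrophages of C57BL6/J wild type mice. In every group the marrow cells had been grown for 7 days in 80% DMEM with serum and 20% medium conditioned by L929 cells, a mouse fibroblast line that releases the macrophage growth factor CSF1. The first count table held 12 libraries of endotoxin-tolerant macrophages, which have met bacterial endotoxin before and answer it weakly: 4 with glutamine, 4 without glutamine, and 4 without glutamine but given α-ketoglutarate (AKG), the tricarboxylic acid cycle acid that cells make from glutamine. The second table held 2 libraries each of untreated control macrophages, macrophages after 6 h of IL-4 and macrophages after 6 h of lipopolysaccharide (LPS). The sources used here give neither the dose of endotoxin nor the time without glutamine, and the labels do not say that replicates came from separate animals or cultures, so p-values measure only the spread between these samples, which may be technical. Levels are counts-per-million (CPM) scaled with TMM factors within each table, so levels set across the tables rest on separate scalings.

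Library totals ran from 28302158 to 37834680 counts in the first table and from 34227368 to 39760356 in the second. The 11 macrophage identity genes all had at least 10 counts in every library and took 3.08 to 4.60% of the counts of the tolerant libraries and 3.02 to 4.37% of the others. Of the fibroblast genes among the members, lumican (Lum) and the surface protein Thy1 were near 0: Lum reached at most 0.332 CPM and Thy1 at most 0.636 CPM in any library. Replicates 3 and 4 of the tolerant set stood apart from replicates 1 and 2 in every group. The labels do not mark these pairs, which were seen in the data. A count of 0 allows up to 3 counts, which is 0.0774 to 0.102 CPM in the tolerant libraries, and such limits cover counting error only.

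Summed over the 31 members, the share of library counts was 0.105, 0.112, 0.561 and 0.549% in tolerant replicates 1 to 4 with glutamine. Without glutamine it was 0.0240, 0.0231, 0.133 and 0.127%, and with AKG it was 0.0497, 0.0386, 0.204 and 0.204%. Within each pair of replicates the order was the same: highest with glutamine, lowest without it and between these with AKG. The group ranges overlapped over all 4 replicates, since replicates 3 and 4 without glutamine exceeded replicates 1 and 2 with it. In the second table the share was 0.0488 and 0.0478% in control, 0.0427 and 0.0407% with LPS and 0.0394 and 0.0443% with IL-4. All of these lay below every tolerant library with glutamine and above replicates 1 and 2 without it. They also lay between replicates 1 and 2 with AKG (0.0497 and 0.0386%). All tolerant libraries were in the first table, so tolerance and count table cannot be told apart. In bulk RNA of this kind, fewer cells of a type and less RNA per cell cannot be told apart.

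**Figure D1:**
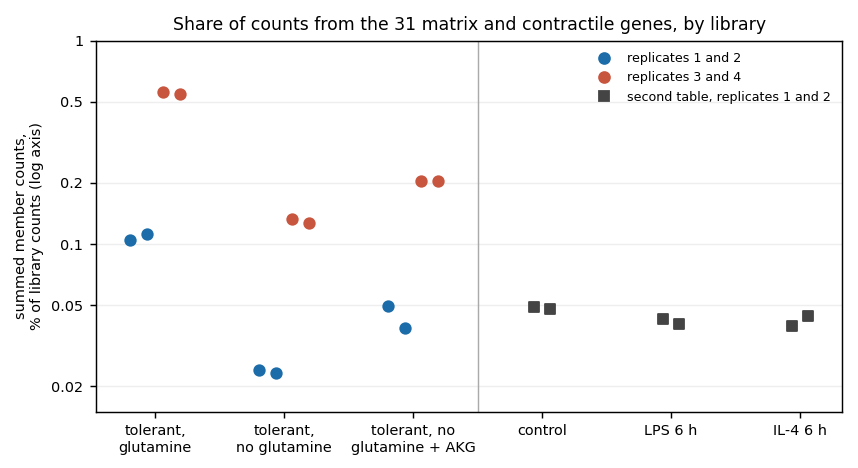
Summed counts of the 31 members as a percentage of all counts in each library (log axis), by group, with 1 point per library. Replicates 3 and 4 with glutamine reached 0.561 and 0.549%, against 0.105 and 0.112% in replicates 1 and 2, and the lowest values, 0.0240 and 0.0231%, were those of replicates 1 and 2 without glutamine.

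The difference between replicates 3 and 4 and replicates 1 and 2 was of a like size over most members. With the groups held fixed, the 29 members that could be tested were higher in replicates 3 and 4 by a median of 2.09 on the log2 scale, from 0.64 (Sfrp2) to 2.63 (Col5a1), beside a median of 0.00323 over all 12492 tested genes. In 27 of the 31 members replicates 3 and 4 both exceeded replicates 1 and 2 in each of the 3 groups, as 22.8% of all tested genes did. In 9 of 31 the 6 libraries of replicates 3 and 4 all exceeded the 6 of replicates 1 and 2 whatever the group, as 14% of tested genes did. The 4 members outside the 27 were Lum, Thy1, Sfrp1 and Sfrp2, the 4 with a mean under 1 CPM. The macrophage identity genes moved little and the other way (median -0.29), and their share of counts was 4.11 to 4.60% in replicates 1 and 2 and 3.08 to 3.73% in replicates 3 and 4. Other stromal lists, which share no member, were also higher, most by less than the members. Their medians were 2.42 (mesenchymal transcription factors), 1.72 (bone marrow stroma and osteoblast markers), 1.66 (pericyte and smooth muscle markers), 1.46 (fibroblast markers) and 1.27 (other collagen chains). Elastic fibre and other matrix proteins had 1.21, the transforming growth factor β pathway 0.88, collagen processing enzymes 0.76 and other contractile genes 0.73. Cell cycle genes had 0.36, endothelial markers 0.16 and adipocyte markers -0.09. Summed, the fibroblast markers took 0.0866, 0.0860, 0.0946 and 0.0918% of counts in replicates 1 to 4 with glutamine. They took 0.0422, 0.0382, 0.0557 and 0.0507% without it and 0.0670, 0.0627, 0.0633 and 0.0655% with AKG. No test was made of this contrast, because the pairs were seen in the data.

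Proportions among the members also differed between the groups. Fibronectin (Fn1), which macrophages also make, gave 14.9, 15.1, 14.97 and 14.9% of member counts in replicates 1 to 4 with glutamine. Without glutamine its part was 31.3, 32.6, 42.0 and 41.6%, and with AKG 22.4, 23.6, 34.4 and 33.98%. Fibronectin thus made up a larger part of the members in every library without glutamine than in any with it. Type I collagen is built from the chains of Col1a1 and Col1a2, and per 100 counts of Col1a1 there were 121, 112, 94.7 and 92.8 counts of Col1a2 with glutamine, 317, 251, 242 and 262 without it and 184, 217, 174 and 171 with AKG. These 3 ranges did not overlap. The same ratio was 131 and 134 in control, 136 and 127 with LPS and 158 and 145 with IL-4. Such ratios within a library do not depend on how libraries were scaled. They show unequal change, not which gene changed.

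Without glutamine 3 of 5 fibrillar collagen chains, 1 of 3 chains of collagen VI and 2 of 3 contractile genes were called lower by the fit on groups alone. Neither of the basement membrane chains was called by it. With the replicate block described below every gene of these families was called lower, so the counts do not rank the families. Where genes are said to fall, they were called on groups alone. By edgeR's quasi-likelihood test with Benjamini-Hochberg adjustment over all genes, 12 of the 29 tested members were lower without glutamine, beside 2.4% of all tested genes called lower. None was higher (0 also by unadjusted p under 0.05, by DESeq2 and by limma-voom), beside 2.3% of all genes called higher. The 29 log2 fold changes were all below 0, with a median of -2.89 beside -0.01 over all genes. Lum and Thy1 had too few counts to be tested, and Sfrp1 and Sfrp2 passed the filter on low counts only through the group with glutamine, so they had to differ. Without these 2, 10 of 27 tested members were lower and the median was -2.78, 27 of 27 were lower with the block described next, and 16 of 29 members did not overlap. The counts that follow include both. In 18 of the 31 members the 4 libraries without glutamine all lay below the 4 with it, as in 5.78% of tested genes. A fit that blocks on replicate number also takes out the difference between the pairs of replicates, and in it all 29 tested members were lower, beside 13% of all genes, and the largest adjusted p was 0.014 (Dcn).

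Lower levels were also called within each pair of replicates. With replicates 1 and 2 alone, 28 of 29 tested members were called lower, beside 15.6% of genes, and the median was -2.82. With replicates 3 and 4 alone, 28 of 30 were called lower, beside 8.79% of genes, and the median was -2.81. Sfrp1 and Sfrp2 were among the 28 in both pairs. Without single libraries the count of 12 dropped: to 3 and 4 without replicates 2 and 1 of the glutamine-free group, to 5 and 6 without replicates 4 and 3 of the glutamine group, and to 7 without replicate 4 of the glutamine-free group. Of 16 cell cycle genes 10 fell in the same comparison, among them Cenpf at -4.15 (SE 0.66, adjusted p = 0.0081), Plk1 at -3.07 (SE 0.48, adjusted p = 0.0081) and Top2a at -1.96 (SE 0.32, adjusted p = 0.0087). Summed, these 16 took 0.0241 to 0.0441% of counts with glutamine, 0.0223 to 0.0264% without it and 0.0180 to 0.0305% with AKG. Their part in the fall of the members was not tested.

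**Figure D2:**
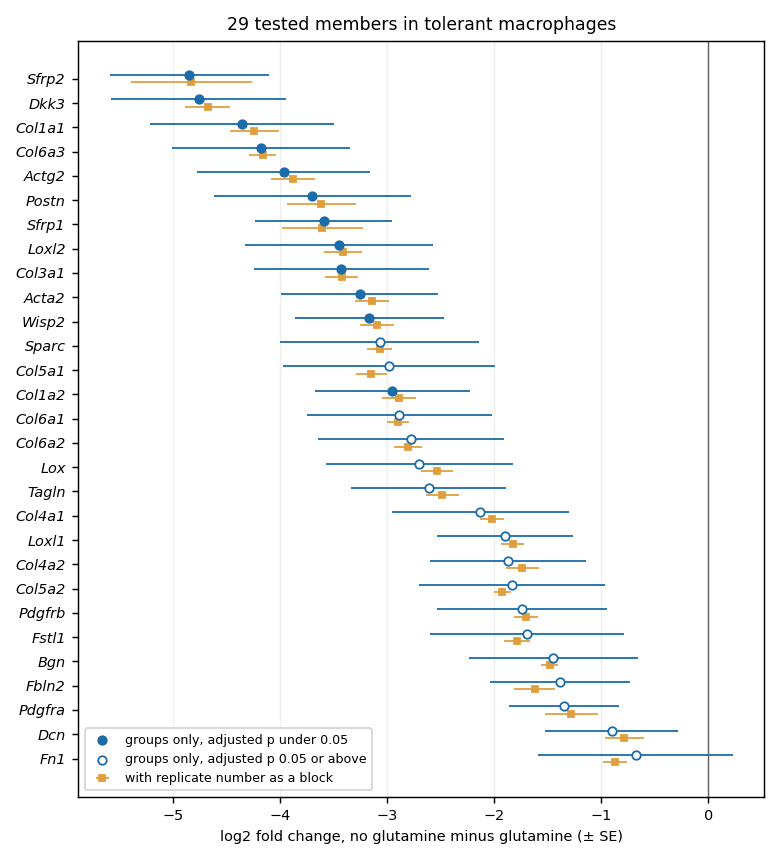
Log2 fold change (± SE) of each of the 29 tested members, tolerant macrophages without glutamine minus with it, from the fit on groups alone (circles, filled where adjusted p was under 0.05) and from the fit with the replicate number as a block (squares). Sfrp1 and Sfrp2 are shown although the filter fixed that they differ. All 29 values lie below 0, from -4.85 (Sfrp2) to -0.68 (Fn1), and every value with the block has the smaller error.

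The 250 bases before the transcription start are shown for 3 members that were called lower and whose window held no annotated exon: Postn, with a TATAAA close to the start, Col3a1, with a TATAAA farther upstream, and Col6a3, with neither. They are RefSeq windows of GRCm38.p6, written 5′ to 3′ on the gene's strand, at chr3:54360857-54361106 (Postn, plus strand), chr1:45311288-45311537 (Col3a1, plus strand) and chr1:90843972-90844221 (Col6a3, minus strand). Capitals mark matches on either strand to the CCAAT box, to the TEAD-family motif GGAATG and to the TATA box, searched as TATAAA, and no match overlapped another.
Postn: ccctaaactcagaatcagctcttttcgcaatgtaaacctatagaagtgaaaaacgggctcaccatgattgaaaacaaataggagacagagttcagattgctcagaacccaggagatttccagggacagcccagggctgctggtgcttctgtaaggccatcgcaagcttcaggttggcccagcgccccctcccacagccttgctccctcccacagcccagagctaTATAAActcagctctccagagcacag
Col3a1: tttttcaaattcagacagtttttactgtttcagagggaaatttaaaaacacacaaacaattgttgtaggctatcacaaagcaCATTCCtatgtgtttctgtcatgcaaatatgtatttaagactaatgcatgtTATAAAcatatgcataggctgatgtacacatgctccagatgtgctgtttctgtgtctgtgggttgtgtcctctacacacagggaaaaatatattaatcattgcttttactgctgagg
Col6a3: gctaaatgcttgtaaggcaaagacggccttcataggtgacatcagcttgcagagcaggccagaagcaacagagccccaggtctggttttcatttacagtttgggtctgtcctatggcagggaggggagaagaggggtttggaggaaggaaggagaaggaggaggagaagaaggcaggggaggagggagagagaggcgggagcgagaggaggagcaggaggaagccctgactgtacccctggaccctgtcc
The TATAAA of Postn began 26 bases before the start, that of Col3a1 117 bases before it, and the Col3a1 window also held GGAATG on the other strand (CATTCC, 168 bases before the start). RefSeq windows were matched to 16 members, with 18 windows in all. TATAAA was in 2 of these 18 and in 12.4% of all 32851 windows of this length, GGAATG in 3 and 12.6%, and CCAAT in 3 and 33.8%. The serum response element known as the CArG box, searched only as CCWWWWWWGG with W for A or T, was in none and 1.47%. Forms of that box with another base were not searched, so their presence is not known from this count. A match is a description of the letters and not a binding site.

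Of the 5 fibrillar collagen chains, which build the cable-like fibres of skin, tendon and scar, 3 were called lower without glutamine on groups alone. Col1a1, the α1 chain of type I collagen (chr11:94936224-94953042, plus strand, GRCm38), had 104, 125, 651 and 634 CPM with glutamine, 6.52, 7.46, 33.8 and 26.4 CPM without it and 28.3, 17.8, 70.2 and 74.9 CPM with AKG, in the order of replicates 1 to 4 that is used throughout. It fell by 4.35 on the log2 scale (SE 0.86, adjusted p = 0.017), its glutamine and glutamine-free libraries did not overlap, and its AKG libraries lay below all 4 with glutamine. Col1a2, the α2 chain (chr6:4504814-4541544, plus strand), had 127, 140.4, 616 and 589 CPM with glutamine, 20.7, 18.7, 81.9 and 69.1 CPM without it and 52.0, 38.7, 122 and 128 CPM with AKG. It fell by 2.95 (SE 0.72, adjusted p = 0.043), a smaller value than that of Col1a1, and its groups with and without glutamine did not overlap. Col3a1, the chain of type III collagen (chr1:45311538-45349706, plus strand), had 38.5, 42.1, 198 and 186 CPM with glutamine, 3.85, 3.56, 19.7 and 16.1 CPM without it and 12.6, 8.18, 34.3 and 36.3 CPM with AKG. It fell by 3.43 (SE 0.82, adjusted p = 0.038). The type V chains Col5a1 and Col5a2, which set the width of fibrils, had -2.98 and -1.84, with adjusted p = 0.12 and 0.30, and the libraries of Col5a2 overlapped. Over the 12 libraries Col5a1 ranged over 2.63 to 186 CPM and Col5a2 over 11.1 to 241 CPM. Col3a1 and Col5a2 are neighbours on chromosome 1, pointing at each other with 24614 bases between them.

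Collagen VI, which forms beaded filaments around cells, had 1 of its 3 chains called. Col6a3 (chr1:90765923-90843971, minus strand) had 30.9, 31.4, 146 and 142 CPM with glutamine, 1.94, 1.56, 8.07 and 7.79 CPM without it and 7.71, 4.74, 22.7 and 21.9 CPM with AKG, and it fell by 4.18 (SE 0.83, adjusted p = 0.018). Col6a1 had 30.0, 30.3, 139 and 141 CPM with glutamine, 3.68, 4.25, 20.2 and 17.97 CPM without it and 11.3, 8.03, 51.4 and 50.8 CPM with AKG. Its log2 value was -2.89 (SE 0.86, adjusted p = 0.090), -2.90 with the block (SE 0.10, adjusted p = 6.1e-07), and its glutamine and glutamine-free libraries did not overlap. Col6a2, with 3.05 to 110.4 CPM over the 12 libraries, lay close to it at -2.78, and shares chromosome 10 with Col6a1, with 85161 bases between them.

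The basement membrane chains Col4a1 and Col4a2 form the mesh under epithelia and around vessels, and were not called without the block. They lie head to head on chromosome 8, with start sites 21 bases apart and an overlap of 22 bases on opposite strands, so reads over that stretch are uncertain. Col4a1 had 14.2, 14.5, 80.1 and 78.9 CPM with glutamine, 4.55, 3.86, 19.3 and 15.2 CPM without it and 6.91, 5.13, 29.6 and 27.1 CPM with AKG. Col4a2 had 8.87, 11.5, 54.9 and 51.4 CPM with glutamine, 3.75, 3.74, 13.9 and 13.2 CPM without it and 5.95, 5.13, 18.7 and 17.0 CPM with AKG. Their log2 values without glutamine were -2.13 and -1.87 (adjusted p = 0.19 and 0.20), and in both the highest glutamine-free library exceeded the lowest with glutamine.

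The small leucine-rich proteoglycans bind collagen fibrils, and neither tested member was called without the block. Biglycan (Bgn) had 87.5, 97.1, 433 and 429 CPM with glutamine, 31.8, 31.5, 165 and 155 CPM without it and 67.6, 58.3, 258 and 260.3 CPM with AKG. Its log2 value was -1.45 (SE 0.79, adjusted p = 0.39), -1.48 with the block (SE 0.08, adjusted p = 4.5e-06). Decorin (Dcn) had 4.42, 4.99, 18.1 and 21.6 CPM with glutamine, 3.55, 3.65, 6.57 and 12.5 CPM without it and 2.71, 3.05, 8.12 and 8.26 CPM with AKG, and its value of -0.90 (SE 0.63, adjusted p = 0.53) was the second closest to 0 among the members. In replicates 1 and 2 decorin without glutamine stood at 76.5% of its level with glutamine, the highest share of any member there with a mean of at least 1 CPM. Lumican, the neighbour of decorin on chromosome 10, had 25 counts over the 4 libraries with glutamine, 4 without it and 3 with AKG.

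Of the matrix glycoproteins 1 of 5 was called. Periostin (Postn), which is made by activated fibroblasts, had 19.9, 19.7, 102 and 136 CPM with glutamine, 2.44, 1.68, 4.15 and 13.1 CPM without it and 7.06, 4.68, 27.9 and 20.3 CPM with AKG. It fell by 3.70 (SE 0.92, adjusted p = 0.045), without overlap between the groups with and without glutamine. Fn1, a cell adhesion protein, had 158, 173, 821 and 790.5 CPM with glutamine, 75.2, 75.5, 552 and 511 CPM without it and 115, 95.2, 694 and 693 CPM with AKG. Its value of -0.68 (SE 0.91, adjusted p = 0.79) was the smallest among the tested members, and its groups overlapped, with -0.87 with the block (SE 0.12, adjusted p = 7.7e-04). Osteonectin (Sparc), a collagen-binding protein, had 58.3, 63.3, 377 and 357 CPM with glutamine, 7.53, 6.83, 44.7 and 42.8 CPM without it and 20.1, 15.1, 78.0 and 84.7 CPM with AKG. Its log2 value was -3.07 (SE 0.93, adjusted p = 0.094), with no overlap between glutamine and glutamine-free libraries. Fibulin-2 (Fbln2), a protein of elastic fibres, had 43.0, 51.4, 112 and 108 CPM with glutamine, 11.1, 10.8, 51.2 and 47.6 CPM without it and 22.3, 19.4, 73.0 and 82.9 CPM with AKG. Follistatin-like 1 (Fstl1), a secreted glycoprotein of mesenchymal cells, had 23.7, 24.7, 143 and 135 CPM with glutamine, 6.19, 6.05, 44.8 and 44.2 CPM without it and 14.4, 12.04, 60.3 and 64.1 CPM with AKG. The values of the last 2 were -1.38 and -1.69 (adjusted p = 0.30 and 0.38), and in both the libraries with and without glutamine overlapped.

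The lysyl oxidases cross-link collagen and elastin, and 1 of 3 was called. Loxl2 had 2.86, 3.73, 19.3 and 17.1 CPM with glutamine, 0.268, 0.329, 1.70 and 1.64 CPM without it and 1.30, 0.996, 4.09 and 4.91 CPM with AKG and fell by 3.45 (SE 0.87, adjusted p = 0.049). Of its transcript's stretches of 50 bases, 45.0% are shared with other annotated genes, mainly Gm21451, so its counts are uncertain. Another annotated gene overlaps 7 members in the same direction of reading and 9 in the opposite one. Lox had 38.9, 40.7, 238 and 223 CPM with glutamine, 8.30, 8.56, 27.6 and 38.9 CPM without it and 13.7, 10.9, 68.3 and 65.0 CPM with AKG. Its value was -2.70 (SE 0.87, adjusted p = 0.11), -2.53 with the block (SE 0.15, adjusted p = 1.3e-05), and Loxl1, with 3.14 to 44.3 CPM, had -1.90 (adjusted p = 0.13).

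Of the 3 contractile genes 2 were called. Acta2, alpha smooth muscle actin (chr19:34241090-34255590, minus strand), had 90.1, 90.3, 440.4 and 427 CPM with glutamine, 12.8, 11.2, 45.7 and 40.1 CPM without it and 40.7, 31.1, 98.0 and 101 CPM with AKG. It fell by 3.26 (SE 0.73, adjusted p = 0.030), and its glutamine and glutamine-free libraries did not overlap. Actg2, the enteric smooth muscle actin, had 8.87, 7.88, 46.9 and 43.4 CPM with glutamine, 0.803, 0.479, 2.74 and 2.84 CPM without it and 2.99, 2.17, 6.85 and 7.73 CPM with AKG and fell by 3.97 (SE 0.81, adjusted p = 0.020). Transgelin (Tagln), an actin-bundling protein with 6.93 to 162 CPM, had -2.61 (SE 0.72, adjusted p = 0.068), again without overlap. Per kilobase of exon, Acta2 was the highest member with glutamine, at 119 ± 90.4 CPM per kb (SD, n = 4), before Col1a1 at 57.7 ± 46.4 and Sparc at 56.4 ± 46.7. These SDs hold the gap between the pairs of replicates, and the step from Col1a1 to Sparc is smaller than either SD. Without glutamine the order began with Fn1 at 26.0 ± 22.6 CPM per kb, Bgn at 15.7 ± 12.2 and Acta2 at 12.5 ± 8.20.

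The fibroblast receptors for platelet-derived growth factor were not called. Pdgfrb had 8.16, 8.07, 39.2 and 39.9 CPM with glutamine, 3.31, 2.13, 12.6 and 10.5 CPM without it and 4.997, 4.04, 18.8 and 21.5 CPM with AKG. Its value was -1.74 (SE 0.79, adjusted p = 0.28), -1.70 with the block (SE 0.11, adjusted p = 1.2e-05). Pdgfra ranged from 1.92 to 15.2 CPM over the 12 libraries, with -1.35 (adjusted p = 0.18). Thy1 had 56 counts over the libraries with glutamine, 16 without it and 17 with AKG.

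Of the secreted Wnt-pathway proteins Dkk3 and Wisp2 fell, and the other two, Sfrp1 and Sfrp2, had to differ to be tested at all and are described by their levels. Dkk3, a member of the Dickkopf family (chr7:112116017-112159057, minus strand), had 6.54, 5.07, 29.2 and 29.3 CPM with glutamine, 0.268, 0.210, 0.980 and 1.13 CPM without it and 3.08, 2.05, 6.602 and 7.49 CPM with AKG. It fell by 4.76 (SE 0.81, adjusted p = 0.010), and no library without glutamine reached the lowest of the other 8. Wisp2, a secreted protein of the CCN family named Ccn5 in GENCODE, had 5.45, 5.07, 22.1 and 21.8 CPM with glutamine, 0.903, 0.569, 2.71 and 1.88 CPM without it and 2.75, 2.35, 7.22 and 7.65 CPM with AKG and fell by 3.17 (SE 0.69, adjusted p = 0.027). Sfrp1, a secreted frizzled-related protein that binds Wnt ligands, had 0.529, 0.600, 1.46 and 1.11 CPM with glutamine, 0, 0.0299, 0.163 and 0.102 CPM without it and 0.154, 0.181, 0.298 and 0.158 CPM with AKG, which came to 135, 9 and 28 counts per group. Sfrp2, of the same family, had 0.903, 0.654, 1.38 and 1.19 CPM with glutamine, 0, 0.0599, 0.0653 and 0 CPM without it and 0.0617, 0, 0.0541 and 0 CPM with AKG, or 149, 4 and 4 counts.

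The size of the fall was set against the pair of replicates by an interaction term. Of the 29 tested members only Fbln2 was called, beside 0.744% of tested genes with a positive and 1.71% with a negative interaction, so a count of 1 in 29 is near the background. Its fall was smaller in replicates 3 and 4 by 0.94 (SE 0.15, adjusted p = 0.014). It went from 43.0 and 51.4 CPM to 11.1 and 10.8 CPM in replicates 1 and 2, and from 112 and 108 CPM to 51.2 and 47.6 CPM in replicates 3 and 4. Another 7 members had an unadjusted p under 0.05. The call was lost without replicate 2, 3 or 4 of the glutamine group or replicate 2 of the glutamine-free group, and the count rose to 5 without replicate 4 of the latter and to 3 without replicate 1 or 2 of the AKG group.

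With AKG in place of glutamine, the mean level of most members lay between those of the other groups in both pairs of replicates. By edgeR's test on groups alone 0 of 29 members were higher or lower than in the glutamine-free group, beside 0.64% of all genes called higher (2 members had an unadjusted p under 0.05, DESeq2 called 1 and limma-voom 0). The median log2 value was 0.96 beside 0.01 over all genes, and 27 of the 29 values were above 0. With the replicate block 24 members were higher, beside 8.32% of all genes. Dkk3 was the only member whose AKG libraries all lay above the glutamine-free ones, as 4.02% of tested genes did, with a log2 value of 2.90 (SE 0.77, adjusted p = 0.0996), 2.999 with the block (adjusted p = 1.5e-04). Wisp2 had 1.72 (SE 0.67, adjusted p = 0.28) and Col6a3 1.56 (SE 0.76, adjusted p = 0.43). Of the others, Col1a1 had 1.37 (SE 0.77, adjusted p = 0.52) and Acta2 1.31 (SE 0.69, adjusted p = 0.48), with 1.496 and 1.41 under the block (adjusted p = 0.0030 and 9.9e-04). Decorin, at -0.24, and Sfrp2, with 4 counts in each group, were the 2 members below 0.

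Against glutamine itself, the log2 values of AKG were below 0 for all 29 tested members, though 0 were called by edgeR on groups alone (13 had an unadjusted p under 0.05, DESeq2 called 7 and limma-voom 0). No gene of the 12492 was called lower in this comparison, which is 0%. The median was -1.48 beside 0.00 over all genes. With the block 27 members were lower, beside 5.38% of all genes, the exceptions being Fn1 and Pdgfra. Without Sfrp1 and Sfrp2, which were tested only through the group with glutamine, 25 of 27 were lower with the block, 11 had an unadjusted p under 0.05, and 6 of 29 members did not overlap. In 8 of 31 members all AKG libraries lay below those with glutamine, as in 3.09% of tested genes. The comparisons with the glutamine-free group and with the glutamine group share the AKG libraries, so their values stand side by side and are not independent. Col1a1 had -2.98 (SE 0.81, adjusted p = 0.24).

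For the 27 members with a mean of at least 1 CPM over the 12 libraries, levels were also expressed as a percentage of the glutamine mean of the same pair of replicates. Without glutamine the median was 14.8% in replicates 1 and 2, from 4.11% (Dkk3) to 76.5% (Dcn), and 14.4% in replicates 3 and 4, from 3.604% (Dkk3) to 66.0% (Fn1). With AKG the medians were 39.8%, from 20.0% (Col6a3) to 91.8% (Pdgfra), and 33.9%, from 11.3% (Col1a1) to 86.1% (Fn1). The medians of the pairs lay close together although their levels with glutamine differed.

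**Figure D3:**
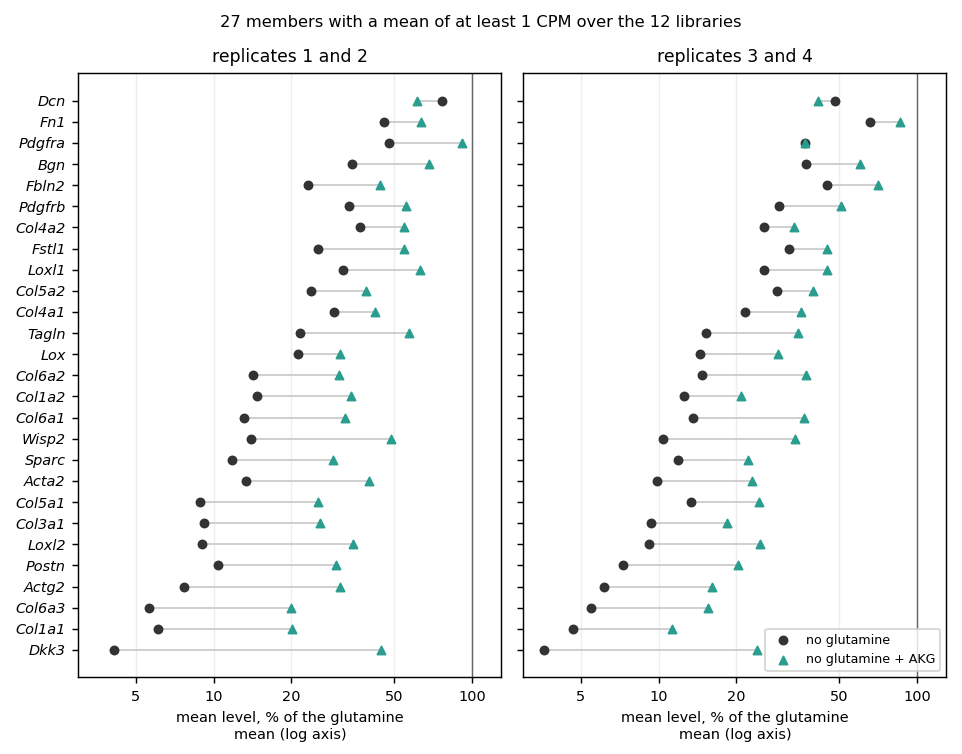
Mean level without glutamine (circles) and without glutamine but with AKG (triangles) as a percentage of the mean with glutamine (log axis), for 27 members in replicates 1 and 2 (left) and 3 and 4 (right). The triangle lies right of the circle in most members, with medians of 39.8% against 14.8% on the left and 33.9% against 14.4% on the right.

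In macrophages that were not made tolerant, 6 h of LPS moved few members. Of 28 tested members 1 was called lower, beside 29.3% of all genes, and 3 higher, beside 22.8% of all genes, both below the background. The median was -0.09 beside -0.10 over all genes. Scaled to library totals instead of TMM factors, the median of all genes shifted to -0.55 and that of the members to -0.55, and 15 members were called lower in place of 1, with the same count of 3 higher. The share of all genes called with library totals was not counted, so these 2 counts cannot be set against a background. Under either scaling the members' median was close to that of all genes, and values below are on the TMM scale. Lum, Thy1 and Sfrp2 had too few counts in this table, and Sfrp1 passed the filter only through the IL-4 group.

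Lox rose most, from 17.0 and 20.7 CPM in control to 118 and 114 CPM with LPS, by 2.62 on the log2 scale (SE 0.15, adjusted p = 8.7e-05 by edgeR). Col4a2 rose from 8.30 and 8.72 CPM to 19.4 and 18.1 CPM, by 1.14 (SE 0.11, adjusted p = 4.9e-04). Its head-to-head partner Col4a1 had 8.28 and 10.4 CPM in control and 11.5 and 9.60 CPM with LPS, a value of 0.17 (SE 0.17, adjusted p = 0.42) that turned to -0.28 with library totals. Per 100 counts of Col4a1 there were 100.3 and 83.6 counts of Col4a2 in control, 168 and 188 with LPS and 91.4 and 93.3 with IL-4. The difference between the responses of the pair was not tested. Pdgfrb rose from 5.57 and 5.63 CPM to 14.1 and 10.8 CPM, by 1.15 (SE 0.19, adjusted p = 0.0037). Dkk3 fell from 2.57 and 2.11 CPM to 1.22 and 1.15 CPM, by 0.98 (SE 0.20, adjusted p = 0.0084), and lost its call without replicate 2 of the LPS group, while without control replicate 1 the count of lower members was 2. The type I collagen and smooth muscle actin genes were near the median of all genes: Col1a1 had -0.12 and Acta2 -0.08 (adjusted p = 0.53 and 0.55).

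With 6 h of IL-4, 7 of 28 members were lower than control, beside 10.5% of all genes, and 2 higher, beside 9.66%. The median was -0.39 beside -0.04 over all genes, and -0.36 with library totals. Wisp2 fell most, from 1.94 and 1.66 CPM to 0.597 and 0.560 CPM, by 1.64 (SE 0.20, adjusted p = 0.0037 by edgeR), while its LPS libraries had 2.12 and 2.24 CPM. The other 6 fell by less: Col4a1 by 0.67, Col4a2 by 0.65, Col1a1 by 0.55, Acta2 by 0.52, Sparc by 0.50 and Fstl1 by 0.48, with adjusted p from 0.013 to 0.046. In CPM, Col1a1 went from 34.2 and 32.5 to 20.8 and 24.9, Acta2 from 26.2 and 23.7 to 17.4 and 17.2, Sparc from 25.9 and 25.7 to 17.8 and 18.6 and Fstl1 from 12.7 and 13.4 to 9.13 and 9.55. Col4a1 ended at 5.71 and 6.05 CPM and Col4a2 at 5.22 and 5.65 CPM. None of these 7 overlapped between the groups. In 22 of the 31 members both IL-4 libraries lay below both control libraries, beside 31.8% of all tested genes. In 4 members, Sfrp1 among them, they lay above, beside 26.5% of all tested genes. Lox rose to 39.7 and 32.6 CPM, by 0.94 (SE 0.15, adjusted p = 0.0083). The other call was Sfrp1, with 9 counts in control and 30 with IL-4, which was tested only through the IL-4 group and had to differ, so that 1 of 27 remains without it. Without single libraries the count of 7 dropped to 1 without either IL-4 replicate, to 4 without control replicate 1 or either LPS replicate, and to 6 without control replicate 2. The count of 2 higher dropped to 0 without IL-4 replicate 1 and to 1 without any other library.

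**Figure D4:**
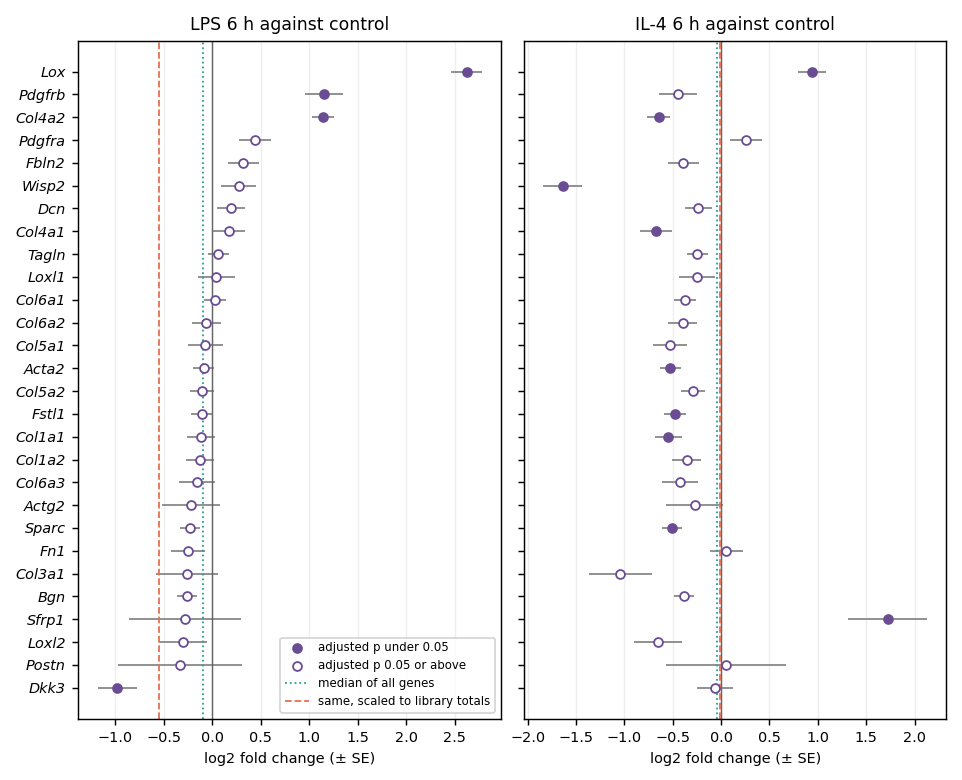
Log2 fold change (± SE, 2 libraries a group) of the 28 tested members after 6 h of LPS (left) or IL-4 (right) against control, filled where adjusted p was under 0.05, with the median of all genes under TMM (dotted) and under library totals (dashed). Sfrp1 is shown although it was tested only through the IL-4 group. Lox stands apart at 2.62 on the left, and most members lie left of the median on the right, where Wisp2 is lowest at -1.64.

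Set against LPS directly, IL-4 libraries had 11 members lower, beside 23.4% of all genes, and 2 higher, beside 29.7%. The median was -0.34 beside 0.10 over all genes. With library totals the median of all genes was 0.58 and that of the members 0.14, and 4 members were called in each direction, again without a counted share over all genes. Those lower under TMM scaling were led by Wisp2 at -1.91, Col4a2 at -1.78, Lox at -1.68 and Pdgfrb at -1.60, each with adjusted p of 0.0010 or less and called under both scalings. Col4a1, Fbln2, Acta2, Dcn, Col1a1, Col6a1 and Fstl1 followed, between -0.84 and -0.37. Of these, Acta2, Dcn, Col1a1, Col6a1 and Fstl1 changed sign with library totals. Fbln2 had 12.02 and 10.5 CPM in control, 15.9 and 12.3 CPM with LPS and 8.38 and 8.79 CPM with IL-4. Col6a1 had 15.1 and 15.5 CPM in control, 16.6 and 14.6 CPM with LPS and 11.6 and 12.04 CPM with IL-4. Dcn had 3.98 and 4.50 CPM in control, 4.84 and 4.89 CPM with LPS and 3.79 and 3.43 CPM with IL-4, so that its LPS libraries were the highest of the 6. The count of 11 dropped to 4 without IL-4 replicate 1, and to 5 without IL-4 replicate 2 or LPS replicate 1. Dkk3 was higher with IL-4 by 0.91 (SE 0.20, adjusted p = 0.011), and the other call was Sfrp1, with 5 counts under LPS, which had to differ. Without Sfrp1 1 of 27 was higher. The count of 2 was 0 without either LPS replicate and 1 without either IL-4 replicate. The other 14 tested members were called in none of the 3 comparisons: Col1a2, Col3a1, Col5a1, Col5a2, Col6a2, Col6a3, Bgn, Postn, Fn1, Loxl1, Loxl2, Actg2, Tagln and Pdgfra. Fn1 had 90.2 and 85.1 CPM in control, 76.1 and 71.2 CPM with LPS and 75.5 and 107 CPM with IL-4, and its groups of control and IL-4 overlapped. Bgn had 46.5 and 42.4 CPM in control, 37.9 and 36.4 CPM with LPS and 32.7 and 35.6 CPM with IL-4, and Col1a2 had 44.8 and 43.4 CPM in control, 45.8 and 35.1 CPM with LPS and 32.8 and 36.0 CPM with IL-4. Col3a1 had 7.36 and 14.1 CPM in control, 8.18 and 9.78 CPM with LPS and 4.93 and 5.49 CPM with IL-4, with a value of -1.04 for IL-4 against control (SE 0.32, adjusted p = 0.083). Postn ranged over 1.66 to 4.62 CPM, against 1.68 to 136 CPM in the tolerant libraries.

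Wider lists of genes from the same pathways, which share no member, were set beside these results for the removal of glutamine. Of the 13 tested of 22 other collagen chains, 1 fell, Col27a1 at -2.39 (SE 0.39, adjusted p = 0.0088), and 7 were lower with the block. Counts of Col27a1 were low, at 25, 41, 77 and 84 with glutamine, 13, 8, 7 and 8 without it and 14, 9, 18 and 12 with AKG. Only the group with glutamine cleared the cutoff of the filter on low counts in every library. Collagen processing enzymes had 3 of 24 lower: Loxl3 at -1.32 (SE 0.17, adjusted p = 0.0040), the procollagen protease enhancer Pcolce at -2.68 (SE 0.40, adjusted p = 0.0077) and the prolyl hydroxylase subunit P4ha2 at -1.26 (SE 0.28, adjusted p = 0.026). Elastic fibre and other matrix proteins had 5 of 21 lower, among them nidogen-2 (Nid2) at -1.26 (SE 0.23, adjusted p = 0.013). The 5 also hold fibulin-1 (Fbln1) at -3.98 and osteoglycin (Ogn) at -3.39. Both passed the filter on low counts only through the group with glutamine, so they had to differ. Fbln1 had 25 to 82 counts a library with glutamine and 1 to 6 without it, and Ogn 21 to 138 and 2 to 7. The other contractile genes had 8 of 21 lower, among them calponin (Cnn1) at -4.26 (SE 0.71, adjusted p = 0.0095), nonmuscle myosin heavy chain Myh10 at -1.96 (SE 0.36, adjusted p = 0.014) and myosin light chain kinase (Mylk) at -2.94 (SE 0.54, adjusted p = 0.014). In none of these 4 lists was a gene called higher without the block. With the block 7, 13, 16 and 12 of their genes were lower, beside 13% of all genes. It called 1 other collagen chain and 1 other contractile gene higher, beside 8.68% of all genes. The medians of the 4 lists were -1.32, -0.85, -1.36 and -0.96, each closer to 0 than that of the members.

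Transforming growth factor β is a known inducer of matrix genes, and 4 of the 21 genes of its pathway fell, among them the ligand Tgfb3 at -3.10 (SE 0.74, adjusted p = 0.038) and the responsive gene Cyr61 at -2.73 (SE 0.59, adjusted p = 0.025). The median of that list was -0.33, and with the block 10 of its genes were lower and 1 higher, beside 13% and 8.68% of all genes. Of 9 tested mesenchymal transcription factors 0 were called by edgeR (2 had an unadjusted p under 0.05) and 7 were lower with the block, among them Snai2 at -2.15 (adjusted p = 0.24) and Snai1 at -2.06 (adjusted p = 0.28). Of the 4 platelet-derived growth factor ligands, 2 were called lower, among them Pdgfc at -0.93 (SE 0.12, adjusted p = 0.0048). The other, Pdgfd at -2.68, passed the filter on low counts only through the group with glutamine, so it had to differ. It had 10 to 44 counts a library with glutamine, 2 to 4 without it and 6 to 11 with AKG. With AKG against no glutamine Pdgfc rose by 0.64 (SE 0.12, adjusted p = 0.031), and Pdgfa fell by 0.61 (SE 0.12, adjusted p = 0.039).

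Markers of the cells a marrow culture could hold were read in the same comparison, and their part in the results was not tested. Of the 20 fibroblast markers outside the members 16 could be tested, 4 fell and 14 were lower with the block, which called 1 higher, with a median of -1.51. The genes that fell included the stromal antigen Cd248 at -4.48 (SE 0.83, adjusted p = 0.014), Rcn3 at -3.04 (SE 0.57, adjusted p = 0.015) and Ccdc80 at -2.78 (SE 0.62, adjusted p = 0.030). Summed, the list took 0.0860 to 0.0946% of counts with glutamine, 0.0382 to 0.0557% without it and 0.0627 to 0.0670% with AKG. Of the 20 genes 15 had at least 10 counts in every library with glutamine, 12 without it and 14 with AKG, and none was at 0 throughout. The list also holds S100a4, S100a6 and Axl, which macrophages express. Of 8 tested bone marrow stroma and osteoblast markers 1 fell, the stromal chemokine Cxcl12 at -2.35 (SE 0.36, adjusted p = 0.0078). Bglap2, a marker of mature osteoblasts, was at 0 in all 12 tolerant libraries, but Alpl of the same list was not. In replicates 3 and 4 Alpl had 95 and 91 counts with glutamine, 6 and 5 without it and 16 and 15 with AKG. In replicates 1 and 2 it had at most 4 counts in any group. Of 4 tested pericyte and smooth muscle markers Cnn1 alone was called, which the list of contractile genes also holds. Of 2 tested adipocyte markers 1, Fabp4, which macrophages also express, rose by 1.16 (SE 0.23, adjusted p = 0.018). No endothelial or macrophage identity gene was called by edgeR (0 of 4 and 0 of 11, with 0 and 2 at an unadjusted p under 0.05), nor a neutrophil marker (0 of 2, and 0 unadjusted) or the mast cell gene Kit (2.85, adjusted p = 0.20), which was the only erythroid or mast cell marker tested. The median of the 11 identity genes was 0.01, and 2 of them were lower with the block, among them Aif1 at -0.70 (adjusted p = 0.14 without the block). Epithelial and lymphocyte markers were too low to test, with the keratins Krt8, Krt18, Krt5 and Krt14 at 0 in every tolerant library.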

How the data were processed

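Whole-number read counts per gene were deposited by the authors in one table of 12 libraries and one of 6. Per the labels' protocols, RNA was extracted with Trizol and RNeasy columns and made into stranded total RNA libraries. Per the submitters' processing notes, STAR, HTSeq and mm10 were used; the versions, and the strand setting of HTSeq, were not given in the sources used here. From the deposited counts, edgeR 4.0.16 (R 4.3.3) was run on each table separately, with filterByExpr (minimum count 10), TMM scaling and robust quasi-likelihood tests, adjusted by Benjamini-Hochberg over 12492 and 12506 genes and called at 0.05. Residual degrees of freedom were 9 and 3, and the common biological coefficients of variation 0.271 and 0.174. Group membership came from the sample labels. DESeq2 1.42.0, limma 3.58.1 (voom), other scalings and filters, 2 groups alone, each replicate left out and the replicate number as a block were alternatives; library totals and a crossed block were added after seeing the data. Fits were tested on simulated data.

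Same-numbered libraries of the tolerant set deviated together from their group means: all 12 pairs had r over 0.1, from 0.501 to 0.823. Libraries of other number but the same pair (1 and 2, or 3 and 4) had 0.465 to 0.836, and across pairs -0.838 to -0.567. The pairing thus comes from the data, and the block (coefficient of variation 0.124, 6 residual degrees of freedom) also takes out the difference between the pairs. Total counts of 28302158 to 39760356 a library limit the genes with few counts.

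The members and lists were chosen with earlier results of these data known. All members are accounted for: values by library are given for the highest of each role and for each member called in any comparison, the others by range, and from each other list at most the 3 genes with the smallest p for glutamine removal. One gene that this rule names is not reported here. Coordinates are from GENCODE vM21 (GRCm38).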

Additional observations from a re-analysis of the deposited data

Results flagged for a closer look

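Lum had 0 CPM in replicate 3 of the AKG group, far below the other 3 libraries of that group relative to their range. It was the only one of 96 groups of values flagged by this check. In most groups replicates 1 and 2 lay apart from replicates 3 and 4, and with such a gap in the middle a single library can hardly be flagged. The usual chance rate of about 1 in 20 therefore does not apply here. The other 3 AKG libraries held 3 counts of Lum in all, so the gap is between 0 and 1 count. For Fbln2 the log2 difference between glutamine-free and glutamine libraries was closer to 0 in replicates 3 and 4 than in 1 and 2 by 0.94 (adjusted p = 0.014, edgeR interaction term). It was the only one of 29 tested members called, and 1.71% of all tested genes had a negative and 0.744% a positive interaction.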

How the results depend on the processing

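The count of 12 members lower without glutamine was 20 by DESeq2, 6 by limma-voom and 4 with the 2 groups fitted alone; with AKG against no glutamine DESeq2 called 1 higher, and against glutamine 7 lower, in place of 0. The block of replicate numbers gave 29, 24 and 27 in these 3 comparisons, beside 13, 8.32 and 5.38% of all genes called in the same directions. Replicates 1 and 2 alone gave 28, 27 and 28, beside 15.6, 12.7 and 6.53%. Replicates 3 and 4 alone gave 28, 23 and 26, beside 8.79, 2.95 and 5.08%. The pair of replicates as a factor gave 29, 25 and 29. For that factor and the other settings here, the share over all genes was not counted. Those counts therefore show only how the calls of members vary. With one replicate left out the 3 counts ran from 3 to 12 in the first and stayed at 0 in the others, and their medians from -3.30 to -2.51, 0.58 to 1.38 and -1.85 to -1.11. The interaction called 2 without a filter and 0 to 5 with one library left out. For LPS the members' median was 0.0061 with RLE factors and with DESeq2 and -0.55 with library totals, which called 15 lower; one library left out gave -0.093 to 0.061, with 0 to 2 lower and 3 higher throughout. For IL-4 against control 1 member was higher with a 1 CPM filter, with DESeq2, with the block and with 2 groups alone, which left 2 lower; one library left out gave 1 to 6 lower, 0 to 1 higher and a median of -0.47 to -0.31. For IL-4 against LPS the median was -0.42 with RLE factors, -0.43 with DESeq2 and 0.14 with library totals, which called 4 lower and 4 higher; 1 was higher with a 1 CPM filter and with DESeq2, and one library left out gave 4 to 14 lower, 0 to 2 higher and -0.42 to -0.25. In the second table the block, on 2 numbers that did not deviate together (r from -0.662 to 0.501), left 5 lower and 1 higher with IL-4. With the numbers of LPS crossed, the LPS counts stayed at 1 and 3. The sign of some single genes turned. With AKG against no glutamine these were Pdgfra (-0.00044 in replicates 3 and 4 alone) and, with one library left out, Fn1 (-0.0100 to 0.86), Dcn (-0.50 to 0.26) and Sfrp2 (-0.70 to 0.37), and against glutamine Fn1 (-0.69 to 0.11). For LPS they were Acta2 (0.013 with RLE factors and DESeq2, -0.16 to 0.088 with one library left out), Col1a1 (-0.26 to 0.020 with one library left out), and with library totals Col4a1 (-0.28) and Wisp2 (-0.18). For IL-4 they were Dkk3 against control (-0.20 to 0.16 with one library left out) and, against LPS with library totals, Col1a1 (0.055), Col6a1 (0.081), Dcn (0.048), Fstl1 (0.11) and Acta2 (0.042). The cause was not tested.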
